A study of Mus musculus with 9 samples.

Results

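The nucleolar ribosome biogenesis genes were followed in E14 cells, a line of mouse embryonic stem (ES) cells, after removal of a single amino acid (AA) from the medium. The list held 40 genes picked by name for their role, with no threshold on a measured value but with earlier results of these data known, and all 40 were among the 20189 genes of the count table. mRNA-seq covered 9 libraries of wild type cells, 3 per group, and these were Thr-starved, Cys-starved and unstarved. Starvation lasted 3 h. The treatment text of the labels describes removal of Arg or Leu, and the base medium used for the Thr-starved and Cys-starved cells and their unstarved controls is not given in the sources used here. All libraries came from 1 cell line, and nothing in the labels says whether replicates were separate cultures, so that p-values measure only the spread between these samples. Poly(A) selection was used, which leaves the ribosomal RNA itself outside the measurement.

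Ribosomes are built in the nucleolus, where RNA polymerase I transcribes the long rRNA precursor from the rDNA repeats. Small nucleolar ribonucleoproteins (snoRNPs) modify the precursor, and a series of assembly factors then fold, cut and package it into the small (40S) and large (60S) subunits. ES cells divide fast and have prominent nucleoli, and the pathway is a known consumer of AAs and energy.

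Depth did not limit the members, though counts may exceed the number of fragments read. The total count per library ranged from 48763102 to 74962733, the lowest count of any member in any library was 2150, and the lowest mean level of a member was 74.7 CPM (the count scaled to a common library total after TMM). The biological coefficient of variation over all genes was 3.53%, so that small differences passed the test. ES cell markers were abundant, and their summed level was 4209 to 4246 CPM in unstarved, 4234 to 4310 CPM in Thr-starved and 3994 to 4036 CPM in Cys-starved libraries. The near-flat sum held opposite moves, since with Thr starvation Klf4 (0.85), Sox2 (0.44), Esrrb (0.43) and Zfp42 (0.12) rose and Utf1 (-1.69), Nanog (-0.42), Pou5f1 (-0.17), Tdgf1 (-0.12) and Dppa5a (-0.12) fell (log2, edgeR). Markers of other cell types summed to at most 9.61 CPM for primitive endoderm, 14.9 CPM for fibroblasts, 27.6 CPM for early germ layers and 2.37 CPM for trophectoderm in any library. The germ layer sum was 19.5 to 20.1 CPM in unstarved, 23.9 to 27.6 CPM in Thr-starved and 24.4 to 25.4 CPM in Cys-starved libraries. With Thr starvation the mean of Sox1 went from 8.37 to 15.4 CPM and that of T from 3.39 to 1.17 CPM. The part of these markers in the results was not tested. In bulk RNA, fewer cells with a transcript and less of it per cell cannot be told apart.

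Thr starvation moved the members in both directions. By edgeR's quasi-likelihood test with Benjamini-Hochberg adjustment over all genes, 12 members rose, 20 fell and 8 did not pass. This is 80% of the list, where 63% of all 20143 genes tested and 80.6% of the 11410 genes that averaged 5 CPM or more were called. Of all genes tested 31.1% rose and 31.9% fell, and of the genes at 50 CPM or more, a range that holds every member, 46.4% rose and 38.4% fell. The share called among the members was thus near that of expressed genes in general. The median log2 fold change of the members was -0.06, against -0.02 over all genes tested and 0.01 over genes at 5 CPM or more, and 1 member, Wdr12, changed by at least 1 on the log2 scale. In Cys starvation 6 members rose, 23 fell and 11 did not pass, or 72.5% of the list. The background was 36.3% over all genes (17.5% higher, 18.8% lower), 55% over genes at 5 CPM or more and 66.6% over genes at 50 CPM or more. Of the genes at 50 CPM or more, 21.3% rose and 45.2% fell. The median log2 fold change of the members was -0.09 with Cys starvation, against 0.01 over all genes tested and -0.02 over genes at 5 CPM or more. No median was computed over genes at 50 CPM or more for any comparison, so these backgrounds are not matched to the members in level. Both comparisons use the same 3 unstarved libraries.

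**Figure D1:**
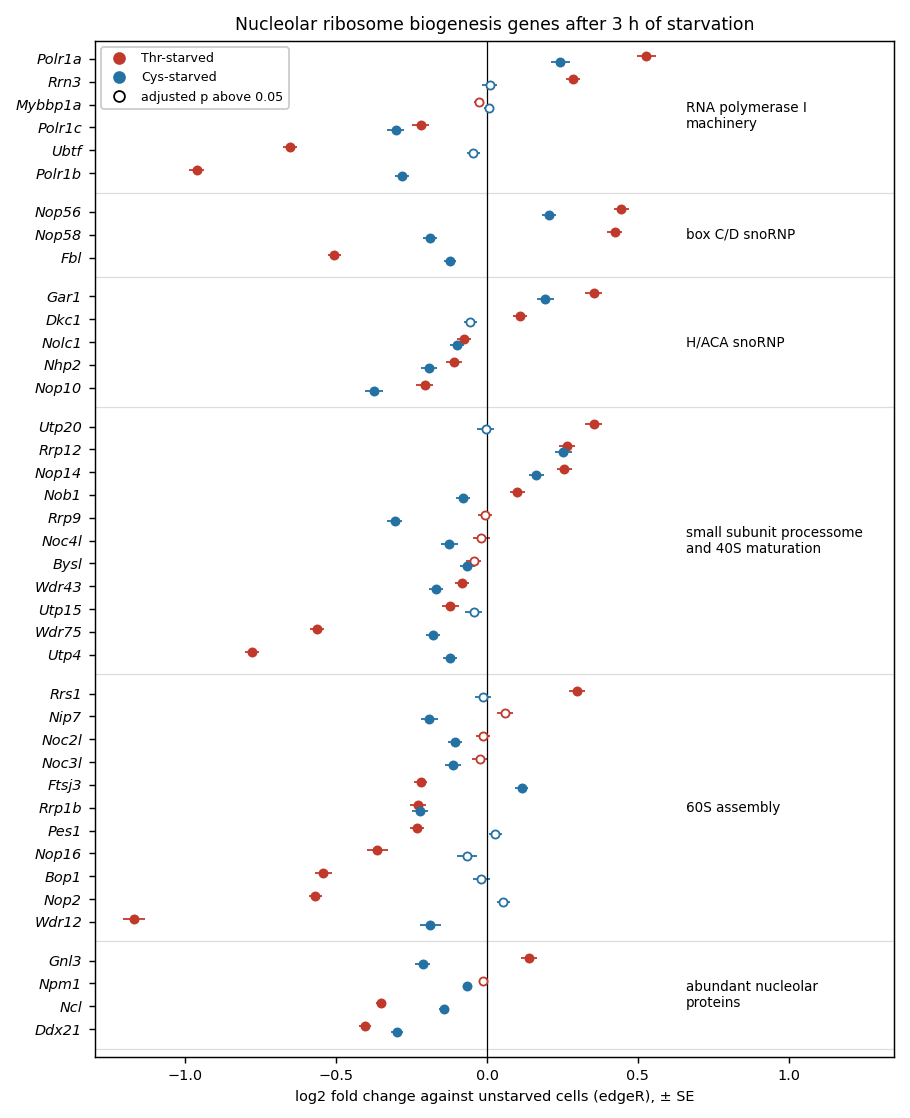
Log2 fold change against unstarved cells (x axis, ± SE from edgeR, 3 libraries per group) of each member (y axis), grouped by role and ordered by the Thr value, with open points for an adjusted p above 0.05. Within most groups the Thr points lie on both sides of 0, from -1.17 for Wdr12 to 0.53 for Polr1a, and the Cys points span -0.37 to 0.25.

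The separation of libraries describes the same values in another way and is no separate support. With Thr starvation, the 3 starved libraries lay wholly above the 3 unstarved for 13 members and wholly below for 22, with 66.5% of all genes not overlapping. With Cys starvation 7 members lay above and 24 below, with 46.4% of all genes not overlapping. These shares are over genes of any level, and none was computed at the level of the members. The members together took 1.59% to 1.61% of all raw counts in unstarved, 1.46% to 1.47% in Thr-starved and 1.57% to 1.59% in Cys-starved libraries. After TMM they summed to 15988.4 to 16217.9 CPM in unstarved and 14936.5 to 15078.2 CPM in Thr-starved libraries. In Cys-starved libraries the sum was 15108.8 to 15350.6 CPM, so the Cys decrease is larger after this scaling. Much of that sum came from a pair of abundant genes, Ncl and Npm1, so it says little about the others.

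**Figure D2:**
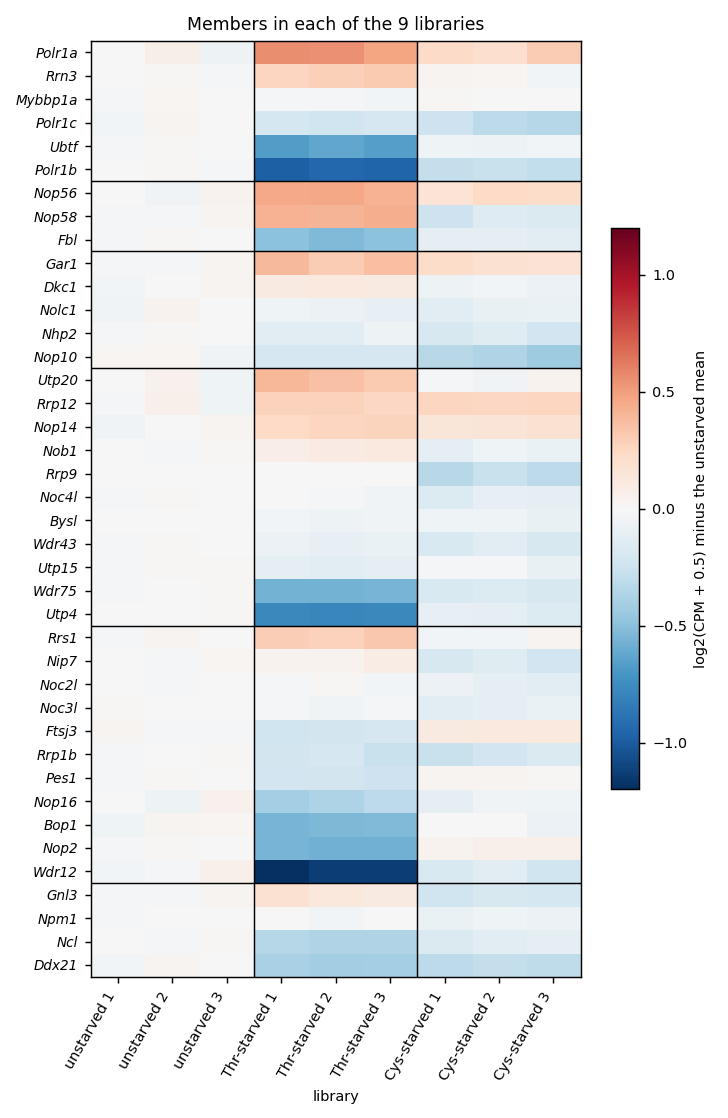
Level of each member (rows, in the order of the plot of fold changes) in each of the 9 libraries (columns), as log2(CPM + 0.5) minus the mean of the unstarved libraries. The 3 libraries of a group carry the same color in nearly every row, with Wdr12 and Polr1b deepest blue and Polr1a deepest red after Thr starvation.

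The RNA polymerase I machinery split between its subunits. Polr1a (chr6:71909053-71984935, + strand, GRCm38), the largest subunit, was at 280, 295 and 270 CPM in unstarved libraries, at 415, 412 and 390 CPM in Thr-starved and at 330, 323 and 347 CPM in Cys-starved libraries. The groups did not overlap, and the Thr-starved libraries were the highest. Polr1a rose by 0.53 ± 0.03 in the absence of Thr (log2, SE; adjusted p = 1.1e-12, edgeR), and by 0.24 ± 0.03 in the absence of Cys (adjusted p = 2.0e-06, edgeR). Polr1b (chr2:129100995-129126594, + strand), which forms the catalytic center together with Polr1a, was at 195, 197 and 194 CPM in unstarved, 99.1, 102 and 101 CPM in Thr-starved and 161, 163 and 159 CPM in Cys-starved libraries. It went the opposite way, again with no overlap, and the Thr-starved libraries were the lowest. The change was -0.96 ± 0.02 (log2, adjusted p = 2.7e-19, edgeR) in the Thr-starved and -0.28 ± 0.02 (adjusted p = 3.2e-09, edgeR) in the Cys-starved cells. Polr1c, a subunit that RNA polymerase I shares with RNA polymerase III, was at 139, 146 and 143 CPM in unstarved, 123, 121 and 124 CPM in Thr-starved and 120, 114 and 112 CPM in Cys-starved libraries. Here the Cys-starved libraries were the lowest, below the Thr-starved by 0.08 ± 0.03 on the log2 scale (adjusted p = 0.014, edgeR), a call lost without Cys-starved replicate 2 (adjusted p = 0.057) or replicate 3 (adjusted p = 0.078).

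The factors that bring polymerase I to the rDNA promoter split as well. Rrn3 (TIF-IA), which joins the polymerase to the promoter complex, was at 235, 237 and 233 CPM in unstarved and 282, 286 and 292 CPM in Thr-starved libraries, a rise of 0.29 ± 0.02 (log2, adjusted p = 3.7e-10, edgeR). In Cys-starved libraries it was at 241, 239 and 230 CPM and overlapped the unstarved. Ubtf, the HMG-box protein that binds along active rDNA, was at 314, 321 and 318 CPM in unstarved, 200, 206 and 200 CPM in Thr-starved and 307, 305 and 311 CPM in Cys-starved libraries. It fell by 0.65 on the log2 scale with Thr starvation (SE 0.02, adjusted p = 5.4e-17, edgeR), and the Cys value of -0.05 ± 0.02 did not pass (adjusted p = 0.12, edgeR), though it did with the deposited size factors (-0.09, adjusted p = 0.0030) and with offsets for GC content and transcript length (-0.08, adjusted p = 0.0028). Mybbp1a, an abundant nucleolar Myb-binding protein, was the 1 member of this group that passed in neither starvation, with 966 to 995 CPM in unstarved, 960 to 969 CPM in Thr-starved and 977 to 991 CPM in Cys-starved libraries. With those offsets its Thr value became 0.13 and passed.

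Core promoter sequence was searched for Rrn3 and the other members because they moved in different directions while sharing a pathway. RefSeq windows (GRCm38.p6, 250 bases before to 50 after a start) existed for 35 of the 40 members. The E-box CACGTG, a palindrome read by Myc and related factors, was in the windows of 7 members (Nop2, Utp4, Utp20, Pes1, Mybbp1a, Rrn3 and Wdr43), or 20%, against 12.8% of genes with at least 5 CPM and 8.09% of all genes. The ETS motif CCGGAAG, searched on both strands like the E-box, was in windows of 10 members (28.6%, against 23%). Of the 7 members with an E-box, 2 rose and 4 fell with Thr starvation, and 0 rose and 2 fell with Cys starvation. Of the 28 without it, 8 rose and 14 fell with Thr, and 5 rose and 19 fell with Cys starvation. Among genes at 50 CPM or more, 46.4% rose and 38.4% fell with Thr starvation, and 21.3% rose and 45.2% fell with Cys starvation. The sets are small, and whether the E-box plays a part was not tested. The boxes of Utp4 (15), Utp20 (37), Pes1 (2), Mybbp1a (40) and Wdr43 (17) lay after the RefSeq start, in bases from it. Only stretches wholly before the start are shown, with the E-box in capitals. They are from Rrn3, which rose with Thr starvation, with boxes at -215 and -48, and from Nop2, which fell, with a box at -60. The Nop2 stretch also holds an ETS motif at -38, left in lower case:
Rrn3, chr16:13780457-13780516 (+): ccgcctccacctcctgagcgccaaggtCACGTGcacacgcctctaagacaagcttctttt
Rrn3, chr16:13780624-13780683 (+): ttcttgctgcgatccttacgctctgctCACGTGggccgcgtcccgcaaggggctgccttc
Nop2, chr6:125131796-125131855 (+): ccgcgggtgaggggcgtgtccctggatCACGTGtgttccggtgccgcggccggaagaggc
A match of letters is not a bound site.

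Box C/D snoRNPs place methyl groups on rRNA, and all 3 core members passed in both starvations. Of genes at 50 CPM or more, 84.8% passed with Thr and 66.6% with Cys starvation, so 3 of 3 is not unusual. Nop56, a scaffold protein, was at 423, 411 and 434 CPM in unstarved, 578, 585 and 563 CPM in Thr-starved and 473, 498 and 491 CPM in Cys-starved libraries. It rose by 0.45 ± 0.02 with Thr (log2, adjusted p = 1.4e-13, edgeR) and 0.21 ± 0.02 with Cys starvation (adjusted p = 4.0e-07, edgeR). Nop58 (chr1:59684971-59719044, + strand), its paralog and partner on the same particle, was at 442, 442 and 458 CPM in unstarved, 599, 593 and 606 CPM in Thr-starved and 378, 403 and 396 CPM in Cys-starved libraries. It was thus above the unstarved level in every Thr-starved library and below it in every Cys-starved library, with 0.42 ± 0.02 (adjusted p = 3.1e-13) and -0.19 ± 0.02 (adjusted p = 1.1e-06, edgeR). Fbl (chr7:28169710-28179269, + strand), the methyltransferase, was at 345, 352 and 348 CPM in unstarved, 247, 242 and 247 CPM in Thr-starved and 321, 321 and 318 CPM in Cys-starved libraries. It fell in both, by 0.51 on the log2 scale with Thr (SE 0.02, adjusted p = 1.9e-15, edgeR) and by 0.12 with Cys starvation (SE 0.02, adjusted p = 6.9e-05, edgeR). Reads of Fbl and Nop56 may be shared with near-identical copies, since another gene matched up to 82.2% of the longest coding transcript of Fbl and up to 39.2% of that of Nop56 at 95% identity or more.

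H/ACA snoRNPs carry the pseudouridine synthase Dkc1 with the small partners Nhp2, Nop10 and Gar1. Gar1 was at 85.8, 85.9 and 88.8 CPM in unstarved, 114, 108 and 112 CPM in Thr-starved and 101, 98.5 and 98.2 CPM in Cys-starved libraries. It rose by 0.35 ± 0.03 with Thr (log2, adjusted p = 2.5e-10, edgeR) and 0.19 ± 0.03 with Cys starvation (adjusted p = 1.2e-05, edgeR). Nop10 was at 110, 110 and 106 CPM in unstarved, 94.3, 94.4 and 94.3 CPM in Thr-starved and 86.1, 84.9 and 81.1 CPM in Cys-starved libraries. It fell in both, further with Cys (-0.37 ± 0.03, adjusted p = 9.3e-10) than with Thr starvation (-0.21 ± 0.03, adjusted p = 1.5e-06), and the direct difference passed (0.17 ± 0.03, adjusted p = 2.9e-05, edgeR). Dkc1 rose by 0.11 ± 0.02 with Thr starvation (adjusted p = 0.00018, edgeR), a value that became -0.04 and no longer passed with the GC and length offsets. Its Cys value of -0.06 missed the threshold (adjusted p = 0.060, edgeR) and passed with RLE, the deposited size factors, DESeq2, filterByExpr and the GC and length offsets (adjusted p = 0.0017 to 0.047). Nhp2 and Nolc1, a chaperone of snoRNPs, had Thr values of -0.11 and -0.08, which passed but not with those offsets, and Cys values of -0.19 and -0.10.

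The small subunit processome, the large particle that forms on the nascent precursor, and the factors of 40S maturation held 11 members. With Thr starvation 4 rose, 4 fell and 3 did not pass, and with Cys starvation 2 rose, 7 fell and 2 did not pass. The shares called were 72.7% and 81.8%, against 80.6% and 55% of genes at 5 CPM or more. Of genes at 50 CPM or more, the range of the members, 84.8% and 66.6% were called. Wdr43, Wdr75, Utp4 and Utp15 belong to the UTP-A subcomplex, which binds the start of the precursor. All 4 fell with Thr starvation, but by unequal amounts, with log2 values of -0.08, -0.56, -0.78 and -0.12. Their Cys values were -0.17, -0.18, -0.12 and -0.04, and all but that of Utp15 passed. Utp4 (chr8:106893636-106923088, + strand) was at 317, 317 and 321 CPM in unstarved, 186, 185 and 186 CPM in Thr-starved and 297, 296 and 285 CPM in Cys-starved libraries. The Thr-starved libraries were by far the lowest, and the Cys-starved libraries also lay below the unstarved (adjusted p = 0.00013, edgeR). Utp20, a very large scaffold protein, was at 289, 298 and 278 CPM in unstarved, 380, 369 and 358 CPM in Thr-starved and 286, 280 and 297 CPM in Cys-starved libraries. It rose with Thr starvation by 0.35 ± 0.03 (adjusted p = 1.8e-10, edgeR), and its Cys-starved libraries overlapped the unstarved.

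Rrp12, a HEAT-repeat protein of pre-40S export, was the 40S member with the closest values in the starvations. It was at 150, 159 and 146 CPM in unstarved, 184, 183 and 180 CPM in Thr-starved and 181, 180 and 181 CPM in Cys-starved libraries. Its rises were 0.27 ± 0.03 (adjusted p = 1.5e-08) and 0.25 ± 0.03 (adjusted p = 1.6e-07, edgeR). The direct difference was 0.01 ± 0.03 (adjusted p = 0.73, edgeR), but 0.27 with the GC and length offsets. Nop14, a processome protein, also rose, by 0.26 with Thr and 0.16 with Cys starvation, and both passed. Rrp9, a protein of the U3 snoRNP, passed with Cys and not with Thr starvation. It was at 165, 165 and 165 CPM in unstarved, 164, 164 and 165 CPM in Thr-starved and 131, 137 and 133 CPM in Cys-starved libraries. Its Cys value was -0.31 ± 0.02 (adjusted p = 1.6e-09) and its direct difference 0.30 ± 0.02 (adjusted p = 3.2e-10, edgeR), while its Thr value of -0.01 became 0.19 with the GC and length offsets. Nob1, the nuclease that makes the final cut of the small subunit rRNA, was at 172, 169 and 172 CPM in unstarved, 181, 183 and 186 CPM in Thr-starved and 159, 165 and 162 CPM in Cys-starved libraries. The differences were small. Nob1 rose by 0.10 ± 0.02 in the Thr-starved cells (adjusted p = 0.00094, edgeR) and its Cys value was -0.08 ± 0.02 (adjusted p = 0.013, edgeR), which no longer passed without unstarved replicate 3 (adjusted p = 0.051) or Cys-starved replicate 1 (adjusted p = 0.076). Noc4l, the partner of Nop14, had -0.12 with Cys starvation, which passed, and -0.02 with Thr starvation, which did not. Bysl, a late pre-40S factor, had -0.07 with Cys starvation (adjusted p = 0.046), which no longer passed with a replicate block (adjusted p = 0.073, edgeR) or without any 1 of 8 libraries (Thr-starved replicate 3 was the exception), and part of its exons overlaps Ccnd3 on the other strand (361 bases).

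Of the 11 factors of 60S assembly, 1 rose, 7 fell and 3 did not pass with Thr starvation, and 1 rose, 5 fell and 5 did not pass with Cys starvation. The shares called, 72.7% and 54.5%, were no higher than those of genes at 5 CPM or more. Bop1, Pes1 and Wdr12 form the PeBoW complex, needed to process the large subunit rRNA. Wdr12 (chr1:60069785-60098645, - strand) was at 101, 101 and 108 CPM in unstarved, 43.9, 46.9 and 47.0 CPM in Thr-starved and 91.2, 93.8 and 87.4 CPM in Cys-starved libraries. No Thr-starved library came near the others, with a log2 fold change of -1.17 ± 0.04 (adjusted p = 9.1e-18, edgeR), so that the level fell by 55.5%, and the Cys value was -0.19 ± 0.03 (adjusted p = 0.00013, edgeR). Bop1 fell by 0.54 and Pes1 by 0.23 on the log2 scale with Thr starvation, whereas their Cys values of -0.02 and 0.03 did not pass. Pes1 has near-identical copies that match up to 60.5% of its longest coding transcript. For Wdr12 the longest such match to another gene covered 1373 bases, or 13.7%, and many other genes matched shorter stretches. Whether reads were shared was not tested. Nop2, an rRNA methyltransferase whose promoter stretch is printed above, was at 312, 321 and 319 CPM in unstarved, 216, 213 and 212 CPM in Thr-starved and 326, 330 and 331 CPM in Cys-starved libraries. It fell by 0.57 on the log2 scale with Thr starvation (adjusted p = 3.6e-16, edgeR), and the Cys value of 0.05 narrowly did not pass (adjusted p = 0.053, edgeR), but did with DESeq2 (adjusted p = 0.048) and with only the 2 groups (adjusted p = 0.023). Nop16, a 60S assembly factor, fell by 0.36 with Thr starvation, with a Cys value of -0.07 that did not pass.

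Other 60S members went different ways. Rrs1, which helps to place the 5S particle, was at 119, 123 and 120 CPM in unstarved, 148, 146 and 151 CPM in Thr-starved and 118, 118 and 123 CPM in Cys-starved libraries. It was the member of this group that rose with Thr starvation, by 0.30 ± 0.03 (adjusted p = 1.5e-09, edgeR). Ftsj3 (chr11:106249142-106256079, - strand), a protein of the methyltransferase family, was at 302, 290 and 293 CPM in unstarved, 250, 253 and 257 CPM in Thr-starved and 319, 320 and 320 CPM in Cys-starved libraries. It fell with Thr starvation by 0.22 (adjusted p = 9.9e-09) and rose with Cys starvation by 0.12 (adjusted p = 0.00024, edgeR). Rrp1b, related to yeast Rrp1, was at 207, 211 and 211 CPM in unstarved, 180, 183 and 175 CPM in Thr-starved and 174, 179 and 186 CPM in Cys-starved libraries, with values of -0.23 and -0.22 that both passed. Noc2l, Noc3l and Nip7, all factors of early or mid pre-60S particles, had Cys values of -0.11, -0.11 and -0.19 that passed and Thr values of -0.01, -0.02 and 0.06 that did not. The Thr value of Nip7 passed narrowly with RLE, DESeq2, filterByExpr or only the 2 groups (adjusted p = 0.035 to 0.041), and it turned to -0.04 with the GC and length offsets. With the GC and length offsets, Noc2l rose with Thr starvation (0.15) and Noc3l fell (-0.18), so their Thr values depend on that setting. Noc2l also shares 598 exon bases with Samd11 on the other strand.

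Abundant nucleolar proteins closed the list. Npm1 (nucleophosmin), a chaperone of the granular region, had the highest level per length of all members, 1267 CPM per kb of exon in unstarved cells, ahead of Ncl (nucleolin) at 308 CPM per kb and Nhp2 at 191 CPM per kb. The lowest was Wdr12, at 8.65 CPM per kb over an annotated exon length of 11955 bases. Npm1 was at 3346, 3383 and 3397 CPM in unstarved, 3375, 3298 and 3366 CPM in Thr-starved and 3194, 3267 and 3219 CPM in Cys-starved libraries. Its Thr value of -0.01 did not pass, though it became -0.15 and passed with the GC and length offsets, and its Cys value of -0.06 passed (adjusted p = 0.00037, edgeR). Up to 53.6% of its longest coding transcript matched another gene. Ncl, which binds rRNA precursors, fell by 0.35 with Thr and 0.14 with Cys starvation on the log2 scale. Ddx21, an RNA helicase of the nucleolus, was at 724, 760 and 746 CPM in unstarved, 566, 558 and 559 CPM in Thr-starved and 599, 610 and 603 CPM in Cys-starved libraries. It fell in both, by 0.41 on the log2 scale (adjusted p = 3.1e-14) and 0.30 (adjusted p = 6.9e-11, edgeR). Gnl3 (nucleostemin, chr14:31012433-31019152, - strand), a GTPase abundant in stem cells, was at 255, 255 and 265 CPM in unstarved, 293, 282 and 277 CPM in Thr-starved and 219, 226 and 222 CPM in Cys-starved libraries, with values of 0.14 (adjusted p = 4.5e-05) and -0.21 (adjusted p = 5.7e-07, edgeR).

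Ratios of counts between members of one particle or step need no scaling between libraries. The pairs were picked after their values were seen, so they are given as a description with no test. Polr1a had 1.44 ± 0.05 counts for each count of Polr1b in unstarved, 4.04 ± 0.16 in Thr-starved and 2.07 ± 0.10 in Cys-starved libraries (SD, n = 3). The ratio of Nop56 to Fbl was 1.21 ± 0.04, 2.34 ± 0.07 and 1.52 ± 0.04 in the same order. The ratio of Nop58 to Fbl was 1.28 ± 0.03, 2.44 ± 0.02 and 1.22 ± 0.04, which leaves the Cys-starved cells close to the unstarved. For Gar1 to Nop10 it was 0.80 ± 0.04, 1.18 ± 0.03 and 1.18 ± 0.03, so that both starvations shifted this pair to a like value. For Pes1 to Wdr12 it was 2.10 ± 0.07, 4.02 ± 0.17 and 2.44 ± 0.07, and for Utp20 to Utp4 it was 0.91 ± 0.04, 1.99 ± 0.06 and 0.99 ± 0.05. Since counts grow with transcript length, only the change of a ratio between groups can be read, not its size.

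**Figure D3:**
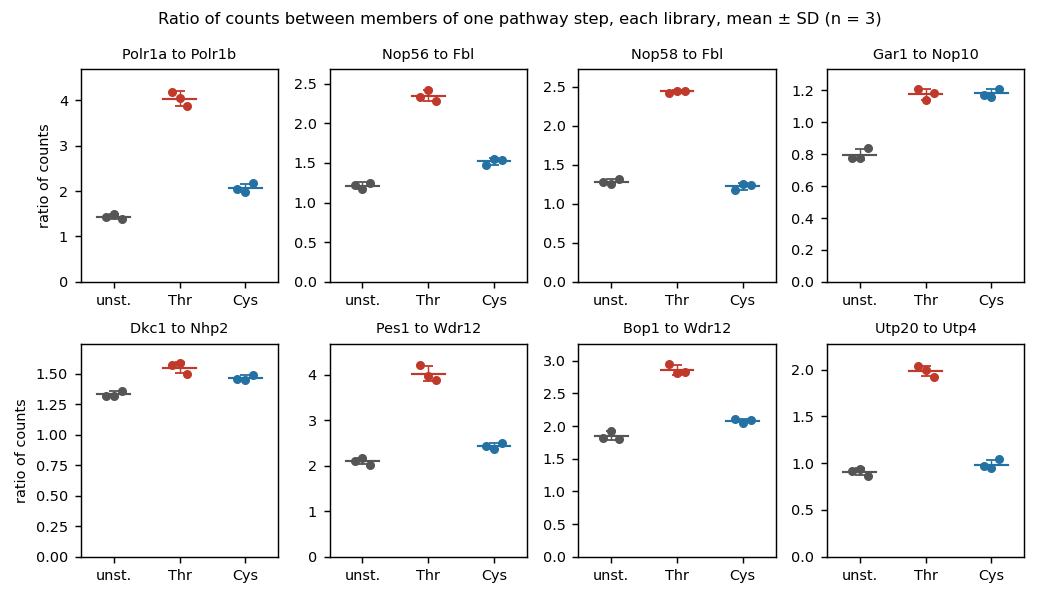
Ratio of counts (y axis, from 0) between 8 pairs of members in unstarved (unst.), Thr-starved (Thr) and Cys-starved (Cys) libraries, with 1 point per library and the mean ± SD (n = 3). Polr1a to Polr1b climbs from 1.44 to 4.04 with Thr starvation, and Gar1 to Nop10 stands at 1.18 in both starvations.

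Thr-starved and Cys-starved cells were also compared directly. By edgeR's quasi-likelihood test, 21 members were higher and 14 lower with Thr than with Cys starvation, and 5 did not pass, or 87.5% of the list. Of all genes tested 62% were called (30.4% higher, 31.6% lower), of genes at 5 CPM or more 80.6%, and of genes at 50 CPM or more 85.1% (54.1% higher, 31% lower). The libraries did not overlap for 36 members, with 65.8% of all genes, of any level, not overlapping. The median of the members was 0.07, against 0.04 over genes at 5 CPM or more and -0.02 over all genes. Nop58 was the highest, at 0.61 ± 0.02 (adjusted p = 6.0e-16), and Wdr12 the lowest, at -0.98 ± 0.04 (adjusted p = 2.7e-16, edgeR). By role, the H/ACA members were higher with Thr in 4 of 5 cases and lower in 0, with Nolc1 not passing. With the GC and length offsets Dkc1 no longer passed (0.02, adjusted p = 0.38) and Nolc1 did (0.10, adjusted p = 0.00016, edgeR). Of the 60S assembly members, 4 were higher and 6 lower. In that direct test Nop58, Gnl3 and Nob1 were higher with Thr and Ftsj3 lower, and these are the 4 members whose called directions against unstarved cells were opposite. Members called in opposite directions against the same unstarved libraries can hardly fail to differ directly, so this is only a description.

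**Figure D4:**
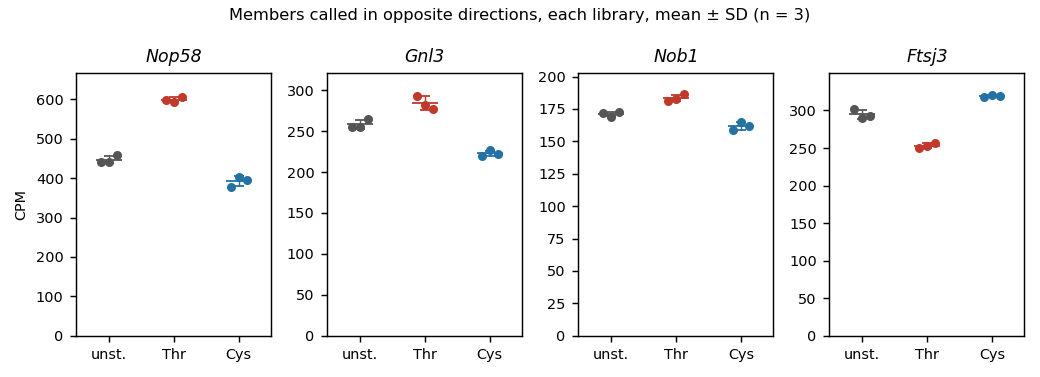
CPM (y axis, from 0) of Nop58, Gnl3, Nob1 and Ftsj3 in the 3 libraries of each group, with the mean ± SD (n = 3). The members were picked for opposite calls, which places the unstarved points between the Thr-starved and the Cys-starved points in each panel.

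The other genes of the pathway were read from the same fit, with 136 of 138 listed genes in the table. With Thr starvation 63 rose, 54 fell and 19 did not pass (median 0.03), and with Cys starvation 29 rose, 47 fell and 60 did not pass (median -0.02). The shares called were 86% and 55.9%, against 80.6% and 55% of genes at 5 CPM or more. Of 10 other RNA polymerase I genes, 7 rose and 2 fell with Thr starvation, with Ttf1, the transcription terminator, highest at 0.92 ± 0.04 and Polr1d lowest at -0.44 ± 0.03. With Cys starvation 4 of these rose and 2 fell, from Taf1d at -0.23 to Taf1a at 0.55. Of 10 other snoRNP and snoRNP assembly genes, 4 rose and 3 fell with Thr starvation, between Shq1 at -0.37 and Znhit6 at 0.54, and with Cys starvation 1 rose and 3 fell, between Nufip1 at -0.43 and Naf1 at 0.10. Of 52 other processome and 40S genes, 21 rose and 26 fell with Thr starvation, between Tbl3, a processome scaffold, at -0.85 and Abt1 at 0.73, and with Cys starvation 11 rose and 17 fell, between Nop9 at -0.29 and Ddx49 at 0.38. Of 50 other 60S assembly genes, 24 rose and 18 fell with Thr starvation, between Sdad1 at -0.50 and Pinx1 at 0.97, and with Cys starvation 12 rose and 19 fell, between Las1l at -0.43 and Mdn1 at 0.36. Of 14 nuclear exosome genes, which trim rRNA precursors, 7 rose and 5 fell with Thr starvation, between Exosc4 at -0.77 and Exosc2 at 0.60, and with Cys starvation 1 rose and 6 fell, between the helicase Mtrex at -0.40 and Exosc1 at 0.14.

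**Figure D5:**
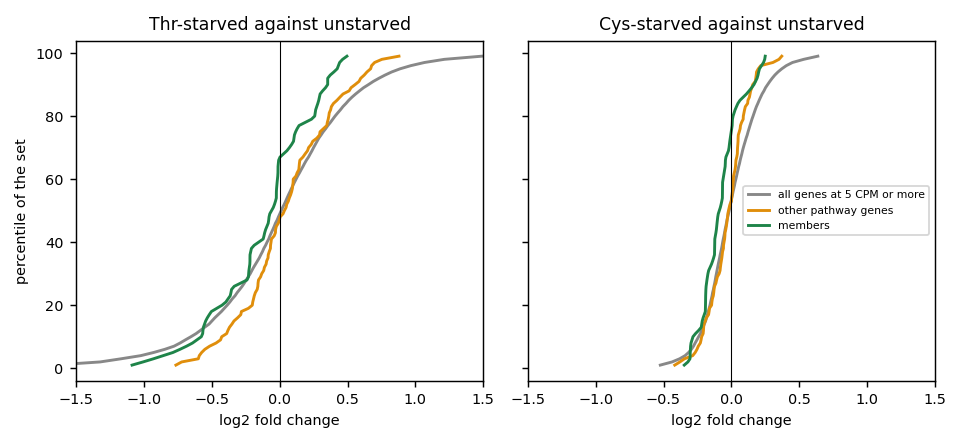
Log2 fold change (x axis) at each percentile (y axis) of the 40 members, the 136 other pathway genes and all genes that averaged 5 CPM or more, for Thr (left) and Cys starvation (right) against unstarved cells. The member curve lies left of the other curves over most of its upper part, with medians of -0.06 and -0.09, and spans far less with Cys than with Thr starvation.

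A feature that the list was not chosen for is the presence of snoRNA genes within the gene body. Of the 40 members 6 held annotated snoRNA genes (15%), against 1.64% of 14746 protein-coding genes tested. That background holds genes of any level, and no share was computed at the level of the members. These were Nop56 with 5, Nop58 with 4, Wdr43, Ncl and Gnl3 with 3 each and Dkc1 with 1. Of these 6, Nop56, Nop58, Dkc1 and Gnl3 rose and Wdr43 and Ncl fell with Thr starvation, while with Cys starvation Nop56 rose and Nop58, Wdr43, Ncl and Gnl3 fell, and Dkc1 did not pass. Since 84.8% of genes at 50 CPM or more were called with Thr and 66.6% with Cys starvation, such calls are not unusual. For Nop56, Nop58, Ncl and Gnl3, annotated snoRNA bases lie inside exons of the host on the same strand, so counting could assign some reads to either. Median GC content of the longest transcript was 50.5% for the members and 50% for protein-coding genes, and median length was 3128 and 3314 bases.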

How the data were processed

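The authors mapped paired reads to GRCm38 with STAR 2.7.4a, obtained gene-level counts by HTSeq, and deposited these raw, 1 column per library. The deposited companion table holds a normalized signal, the same counts divided by 1 DESeq2 size factor per library, and was used only for those factors. The library kit was directional, but the strand setting of the counting is not given in the sources used here. Even counts made up 67.8% of the 28226 values from 1 to 20. Replicate libraries were not identical, and at low counts the chi-square between them was 1.98 to 2.13 per gene, above the level of random sampling alone. Whether some fragments were counted more than once was not tested, so counts may exceed the number of fragments read.

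Counts were tested with edgeR 4.0.16 (R 4.3.3) after TMM normalization, by the quasi-likelihood F test on the 20143 genes with at least 1 count, all 9 libraries in one fit, with Benjamini-Hochberg adjustment over all genes per comparison and calls at 0.05 or less. The script was checked on simulated counts. Symbols, lengths and overlaps came from GENCODE M21, near-identical transcripts from BLAST 2.17.0. Alternatives were RLE, the deposited size factors, DESeq2 1.42.0, filterByExpr, fits of the 2 groups, a replicate block, other thresholds, loess offsets for GC content and length (span 0.3) and each library left out.

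Values in every library are given, by role group, for the members with the highest and the lowest fold change in each starvation and for members called in opposite directions; Rrn3, Ubtf and Nop2 were added after their values were seen. The members and all gene lists were chosen with earlier results of these data known. Replicate numbers come from the titles.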

Additional observations from a re-analysis of the deposited data

Results flagged for a closer look

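Nop58, Nob1, Gnl3 and Ftsj3 were called in opposite directions in the starvations. The rule that flagged them also required a call in edgeR's direct quasi-likelihood test, so passing that test is no separate support. The direct log2 differences, Thr-starved against Cys-starved, were 0.61 for Nop58, 0.35 for Gnl3, 0.18 for Nob1 and -0.33 for Ftsj3, with 3 of 3 Thr-starved libraries on one side of all Cys-starved libraries in each case. The Cys value of Nob1, -0.0794 with all libraries, was -0.0741 without unstarved replicate 3 and -0.0647 without Cys-starved replicate 1. Its call was lost in both fits (adjusted p = 0.051 and 0.076, edgeR), each with fewer libraries.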

How the results depend on the processing

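Counts of called members were 31 to 36 with Thr, 27 to 33 with Cys and 33 to 36 for Thr against Cys over all alternatives but the fold threshold. Asking for a log2 change of 1 or more in either direction left 1, 0 and 0. The deposited size factors moved the Cys median to -0.131 and the direct median to 0.112. With each library left out, the Thr median ranged from -0.0638 to -0.0426, the latter without unstarved replicate 2. Same-numbered libraries correlated at -0.24 to 0.11 in their deviations, which shows no strong shared effect but cannot tell whether the numbers pair them. A replicate block gave 32, 28 and 35 calls, ending only the Cys call of Bysl.

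Signs turned mostly for values near 0, and the cause was not tested. With GC and length offsets the Thr values became 0.128 (Mybbp1a), -0.0372 (Dkc1), 0.0815 (Noc4l), 0.194 (Rrp9), 0.0971 (Bysl), 0.145 (Noc2l) and -0.0440 (Nip7). The Cys values became -0.00148 (Rrn3) and -0.0239 (Mybbp1a). The direct values became 0.152 (Mybbp1a), -0.0361 (Wdr43), -0.0491 (Noc3l), -0.0890 (Npm1) and 0.155 (Rrp1b). With the deposited size factors, Cys values became -0.0333 (Rrn3), -0.0364 (Mybbp1a) and -0.0140 (Pes1), and direct values 0.0135 (Mybbp1a) and 0.0391 (Rrp1b). Rrp9 with Thr became 0.000274 with RLE and 0.000352 with DESeq2. Rrp1b in the direct test became 0.00583 with RLE, 0.00554 with DESeq2 and 0.00332 with filterByExpr. Utp20 with Cys became 0.00107 with only its 2 groups. Leaving out a library gave -0.00872 to 0.000137 for Rrp9 with Thr. With Cys it gave -0.00472 to 0.0283 for Rrn3, -0.00904 to 0.0152 for Mybbp1a, -0.0288 to 0.0201 for Utp20, -0.0491 to 0.00519 for Bop1 and -0.0333 to 0.00315 for Rrs1. In the direct test it gave -0.0277 to 0.0192 for Rrp1b. Calls were lost for Nolc1 with Thr (-0.0509 without unstarved replicate 2), for Nob1 with Cys (-0.0741 without unstarved replicate 3, -0.0647 without Cys-starved replicate 1), and for Bysl with Cys (-0.0724 to -0.0530 without any library but Thr-starved replicate 3). In the direct test they were lost for Polr1c (0.0752 and 0.0644 without Cys-starved replicates 2 and 3), Nhp2 (0.0582 and 0.0637 without Thr-starved or Cys-starved replicate 3) and Utp15 (-0.0728 to -0.0625 without replicate 1 or 2 of either starvation). With Cys, Dkc1 (-0.0730 and -0.0688 without unstarved replicate 1 or Cys-starved replicate 2), Nop2 (0.0625 and 0.0542 without unstarved replicate 2 or Thr-starved replicate 3) and Nop16 (-0.0956 without unstarved replicate 2) were gained. Calls were also gained with other settings for Dkc1 (RLE, deposited size factors, DESeq2, filterByExpr, GC and length offsets), Nop2 (DESeq2, only the 2 groups), Ubtf (deposited size factors, GC and length offsets), Utp15 and Nop16 (deposited size factors) and Utp20 (GC and length offsets), all with Cys, where that of Bysl also ended with only the 2 groups. With Thr, they were gained for Nip7 (RLE, DESeq2, filterByExpr, only the 2 groups), and for Noc3l and Npm1 (GC and length offsets), which ended those of Nhp2 and Nolc1. In the direct test, those of Nolc1 and Bysl were gained with the deposited size factors or the offsets and that of Rrp12 with the offsets, while those of Dkc1 and Nop14 ended with the offsets and that of Utp15 with the deposited size factors or DESeq2. With 3 libraries per group and 1 cell line, the spread may be technical, and the results cover this experiment only.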
